A study of Mus musculus with 12 samples.

Results

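Notch1-/- mouse embryonic stem cells on day 6 of differentiation were compared with undifferentiated Notch1-/- cells (day 0). The comparison uses 6 of the 12 libraries of the series, 3 per day, chosen by their labelled genotype and day, and all 40039 loci of the deposited count table. The other 6 libraries, 3 of wild-type (WT) cells at day 6 and 3 at day 0, shared the estimate of the spread and were used to test whether a change differed between genotypes. All cells are labelled as C57BL/6J. Undifferentiated cells were kept with LIF, a cytokine that holds mouse stem cells undifferentiated, at 1000 U/ml, either on feeder layers of embryonic fibroblasts or on gelatin, and the labels do not say which library came from which surface. Differentiation toward heart was started by letting 1000 cells aggregate in a hanging drop, which gives an embryoid body. Which part of Notch1 was deleted, and whether the cells were 1 clone, is not stated in the labels. The series design names 3 biological replicates per condition without saying that they came from separate cultures, so the p-values measure the spread between these libraries, which may be technical.

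Mouse embryonic stem cells resemble the naive epiblast of the blastocyst. When they differentiate they pass through a primed epiblast state, and Wnt and Nodal signals then start a primitive streak, from which mesoderm (heart, vessels, blood) and definitive endoderm arise. Notch1 is a receptor that neighbouring cells activate; its cleaved inner part joins the DNA-binding protein Rbpj and switches on genes such as those of the Hes and Hey families. Feeder fibroblasts are connective tissue cells that secrete matrix proteins, proteases and cytokines.

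The libraries held from 100637179 to 134662426 counts. Levels are given as CPM (counts scaled to a common library size) for the 3 libraries of a group in the order 1, 2 and 3, and changes as log2 of day 6 over day 0 from edgeR's quasi-likelihood test. That test gives no standard error (SE), so the SE of a change by counts was worked back from it. It is the size of the change over the square root of the F statistic. A locus was called at a Benjamini-Hochberg adjusted p under 0.05 over the 23991 loci tested. The Notch1 locus (mm9, minus strand of chromosome 2, bases 26301026 to 26363148) stood at 6.80, 4.90 and 4.95 CPM in Notch1-/- day 6 libraries, against 3.80, 3.87 and 4.59 CPM in Notch1-/- day 0 libraries, and its change was not called (0.44, SE 0.28, adjusted p = 0.243). In WT cells it averaged 33.3 ± 4.04 CPM at day 6 and 40.1 ± 19.2 CPM at day 0 (SD, n = 3 each), above every Notch1-/- library.

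Over 6 days the Notch1-/- cells gained genes of the primitive streak, Wnt signalling and primed epiblast, and lost genes of naive pluripotency and the germline. Fibroblast cytokine, protease and matrix genes fell too, among them Inhba, Il1rl1, Fgf7 and Lox. In all, 4120 loci rose (17.2% of those tested) and 4493 fell (18.7%). Of these, 2763 rose and 3718 fell at least 2-fold, and 289 rose and 642 fell at least 16-fold. Rises were thus 47.8% of all calls, a share that dropped to 37.1% with upper quartile scaling, which moved the median change of all loci to -0.18 from -0.02. Among the 13032 tested loci linked to a gene symbol, 2770 rose and 2310 fell.

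Loci outside known genes leaned the other way. Of 11952 tested protein-coding genes 21.7% rose and 17.2% fell (median 0.06). Of 2125 spliced loci that lie only between known genes, 11% rose and 30.4% fell (median -0.43), and of 4994 such loci with a single exon 10.2% rose and 16.4% fell (median -0.15). Of 998 long noncoding genes, 161 rose and 243 fell.

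**Figure D1:**
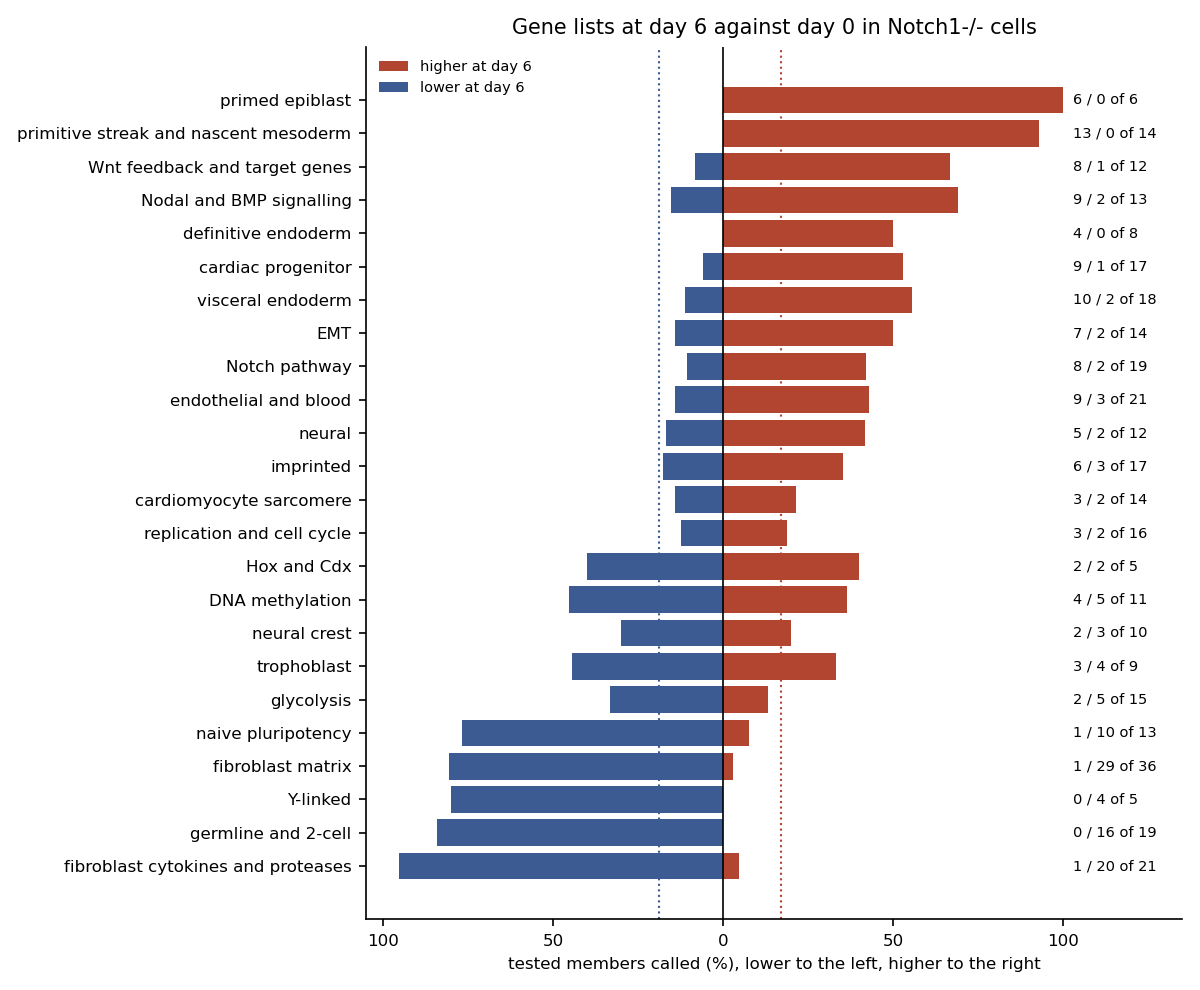
Share of the tested members of each gene list called higher (red, to the right) or lower (blue, to the left) at day 6 against day 0 in Notch1-/- cells, with the numbers called higher / lower of tested at the right. Dotted lines mark the share among all loci tested (17.2% higher, 18.7% lower); primed epiblast and primitive streak lists lie at the top, and fibroblast, germline, Y-linked and naive lists at the foot.

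Primitive streak genes rose in the Notch1-/- cells more often than any other developmental list of at least 10 tested genes: 13 of 14 tested members rose and 0 fell (median 4.79), against 17.2% of all loci. The remaining member, Cdx1, had 2.76, 8.91 and 2.39 CPM at day 6 against 1.69, 1.40 and 0.973 CPM at day 0 (adjusted p = 0.0657). The list had 12 or 13 rises when any 1 of the 6 libraries was left out.

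The Wnt ligands of the streak were near background at day 0 and present in every day 6 library. Wnt3 (chromosome 11, 103635489 to 103679346), which starts the streak in the mouse embryo, had 80.3, 94.6 and 37.9 CPM in day 6 libraries, against 2.41, 0.352 and 1.63 CPM in day 0 libraries (5.60, SE 0.59, adjusted p = 3.37e-05). Wnt8a (chromosome 18, 34700834 to 34709468), a posterior epiblast and streak ligand, had 92, 85.1 and 87.5 CPM at day 6, against 1.51, 1.53 and 3.67 CPM at day 0 (5.30, SE 0.43, adjusted p = 7.65e-06). The 3 day 6 values of Wnt8a lay close together, whereas Wnt3 was lowest in day 6 library 3. Wnt3a, a ligand of the later streak, rose by 1.70 (SE 0.45), with 3.32, 3.83 and 2.33 CPM at day 6 against 1.66, 0.712 and 0.551 CPM at day 0.

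Secreted modulators and transcription factors of the streak rose with the ligands. Frzb (chromosome 2, 80252127 to 80288651), a secreted Wnt antagonist, had 110, 95.6 and 74.1 CPM in day 6 libraries, against 0.575, 0.765 and 1.13 CPM in day 0 libraries (6.82, SE 0.62, adjusted p = 1.43e-05). Rspo3, which amplifies Wnt signals at the membrane, rose by 2.95 (SE 0.45). Vrtn, a regulator of vertebral number in pigs, had 324, 324 and 207 CPM at day 6, against 11.6, 7.78 and 11.9 CPM at day 0 (4.77, SE 0.37). Foxa2, a factor of the anterior streak and endoderm, had 42.1, 12 and 30.5 CPM at day 6, against 1.45, 0.589 and 0.221 CPM at day 0 (5.23, SE 0.66). For each of these genes the lowest day 6 library lay above the highest day 0 library, as for 24.9% of all loci tested, while 24.4% had every day 6 value below every day 0 value.

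The defining T-box and homeobox factors share most of their exon length with other loci and had few counts, so their levels are given in the deposited FPKM, which is normalised for transcript length. T (Brachyury), the classic streak and early mesoderm factor, had 141, 178 and 58.5 FPKM in day 6 libraries, against 0.522, 0.238 and 0.426 FPKM in day 0 libraries (log2(FPKM + 1) change 6.37, SE 0.45, adjusted p = 1.17e-05, limma). Eomes had 104, 106 and 62.5 FPKM at day 6, against 6.56, 3.52 and 2.27 FPKM at day 0 (4.22, SE 0.41). Lhx1, a factor of the anterior streak and node, had 110, 69.7 and 44.7 FPKM at day 6, against 1.51, 0.026 and 0.038 FPKM at day 0 (5.68, SE 0.37). By counts Lhx1 was at 0 in all 3 day 0 libraries, and the change was at least 7.21 on the log2 scale against a floor of 3 counts over the group. All 3 factors were high in every day 6 library and lowest in library 3. Evx1 and Gsc, streak genes without usable counts, had 19.2, 22 and 4.65 FPKM and 19.7, 16.3 and 8.99 FPKM at day 6, against at most 0.793 and 0.674 FPKM at day 0. Mixl1, Mesp1 and Tbx6 could not be linked to a locus.

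**Figure D2:**
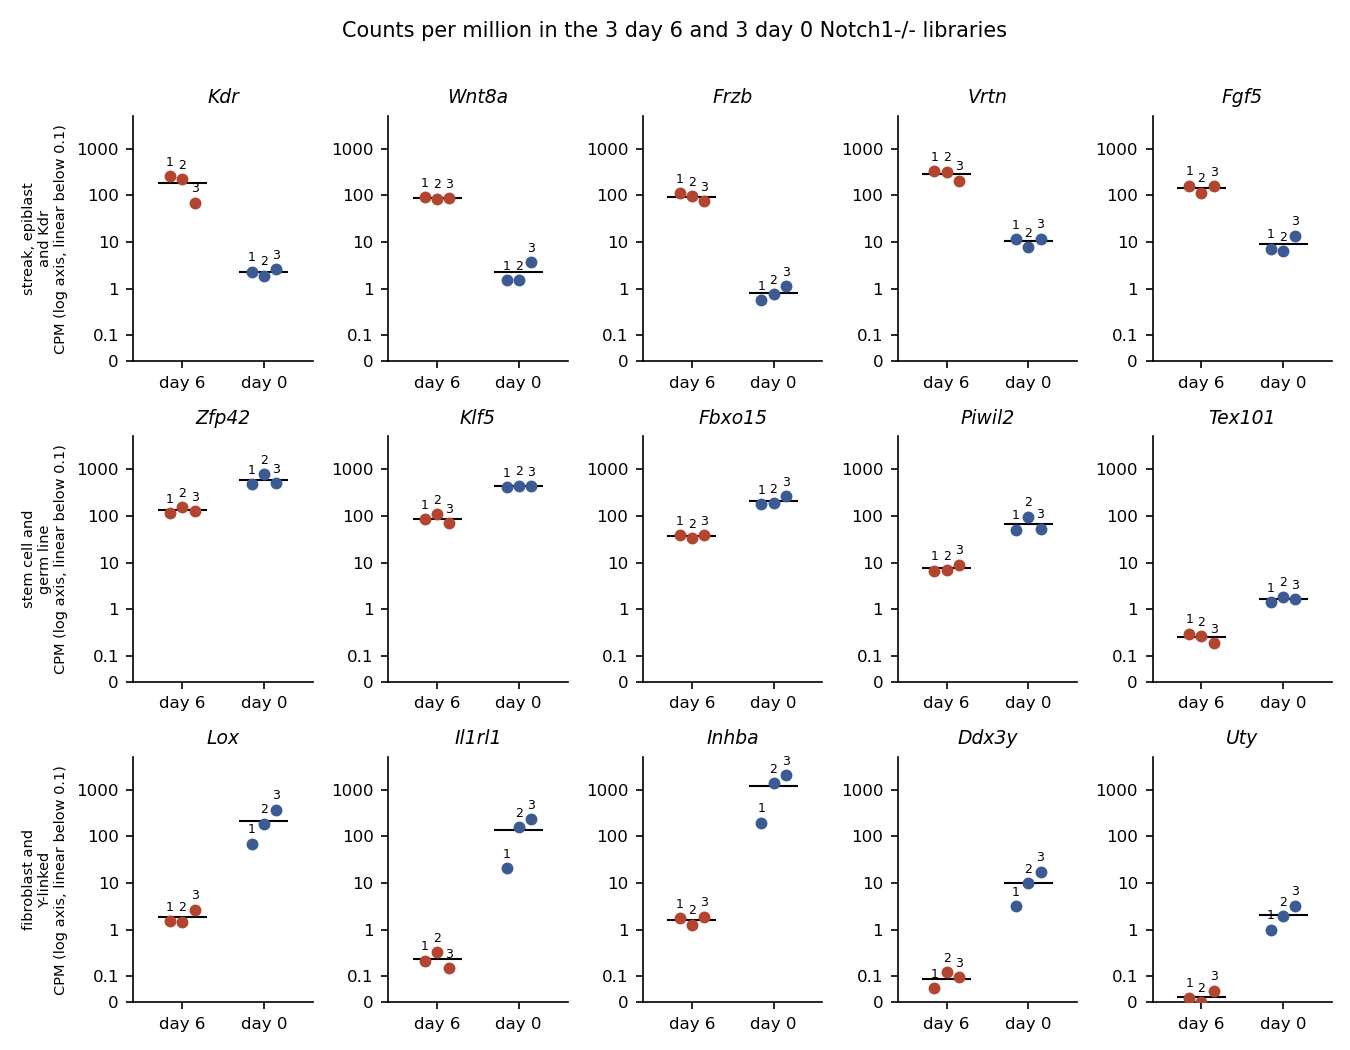
CPM of 15 genes in the 3 day 6 libraries (red, left in each panel) and 3 day 0 libraries (blue, right) of Notch1-/- cells, on a log axis that is linear below 0.1; numbers are library numbers and bars are means. Kdr, Wnt8a, Frzb, Vrtn and Fgf5 (top row) were higher in every day 6 library, stem cell and germline genes (middle row) were lower, and fibroblast and Y-linked genes (bottom row) were lower, with their highest day 0 value in library 3 and their lowest in library 1.

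Direct targets and feedback genes of Wnt signalling rose as well: 8 of 12 tested members rose and 1 fell (median 1.79). Of all loci 17.2% rose and 18.7% fell. Axin2 (chromosome 11, 108779204 to 108812099), a feedback inhibitor that marks active Wnt signalling, had 153, 198 and 76.1 CPM in day 6 libraries, against 18.3, 11.6 and 9.99 CPM in day 0 libraries (3.42, SE 0.35, adjusted p = 2.74e-05). Nkd1, another feedback inhibitor, had 33.7, 27.8 and 17.9 CPM at day 6, against 1.65, 0.914 and 1.25 CPM at day 0 (4.38, SE 0.39). Sp8, a zinc finger factor of the embryo, had 17.8, 22.3 and 15 CPM at day 6, against 0.218, 0.580 and 0.572 CPM at day 0 (5.32, SE 0.47). Tnfrsf19, a Wnt-responsive receptor also known as Troy, had 99.5, 125 and 70.8 CPM at day 6, against 9.64, 2.23 and 4.89 CPM at day 0 (4.14, SE 0.45). For each of these 4 genes every day 6 value lay above every day 0 value, as for 24.9% of all loci. They were named for the smallest p of their list, which makes this likely beforehand. Lgr5 (3.46, SE 0.66), Apcdd1 (2.15, SE 0.29), Lef1 (1.44, SE 0.49) and Tcf7 (0.86, SE 0.13), the last pair being factors through which Wnt acts on DNA, also rose. Wif1, a Wnt ligand trap, fell by 2.74 (SE 0.54). Dkk1, a secreted antagonist without usable counts, had 19, 17.3 and 9.49 FPKM at day 6, against 0.369, 0.327 and 0.124 FPKM at day 0.

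Wnt acts on its target genes through Tcf and Lef factors, which bind the motif CTTTGAT or CTTTGAA. Both were searched on both strands in the RefSeq promoter windows (GRCm38.p6, 250 bases before to 50 bases after a gene's start). They differ only in their last base, and matches on opposite strands can overlap. Of 10 list genes with a window 4 held a match, and of the 6 called higher 2 did, Sp8 and Tnfrsf19, against 9.88% of 27025 genes and 8.65% of 32851 windows. Sp8 has 3 windows and Tnfrsf19 has 2, of which 1 each held a match and the others none. The window with the match is shown for each, with the match in capitals on the strand of the gene, so that it reads as the reverse complement of a motif.
Sp8, chr12:118846983-118847282, plus strand: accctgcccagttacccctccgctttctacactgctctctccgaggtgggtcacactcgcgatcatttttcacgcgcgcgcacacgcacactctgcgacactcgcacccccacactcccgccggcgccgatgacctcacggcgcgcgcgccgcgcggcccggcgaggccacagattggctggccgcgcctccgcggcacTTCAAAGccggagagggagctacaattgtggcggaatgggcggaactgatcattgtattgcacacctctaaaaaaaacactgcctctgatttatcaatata
Tnfrsf19, chr14:61037938-61038237, minus strand: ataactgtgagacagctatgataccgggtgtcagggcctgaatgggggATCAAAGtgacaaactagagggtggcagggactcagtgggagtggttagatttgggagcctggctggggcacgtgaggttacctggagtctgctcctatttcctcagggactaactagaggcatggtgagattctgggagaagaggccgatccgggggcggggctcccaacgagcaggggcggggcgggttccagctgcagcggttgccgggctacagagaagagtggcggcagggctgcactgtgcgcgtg
A match in such a window is a description and not a binding site. The windows of Axin2, Nkd1, Lef1 and Tcf7 held neither motif, which says only that these letters are not in these windows.

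Nodal and BMP pathway genes mostly rose, 9 of 13 up and 2 down (median 1.12), against 17.2% and 18.7% of all loci. Bmp5 had 19.9, 10.04 and 3.71 CPM in day 6 libraries, against 0.317, 0.114 and 0.381 CPM in day 0 libraries (5.38, SE 0.61), and Bmp7 had 53.1, 31.9 and 23.7 CPM against 6.03, 3.20 and 4.01 CPM (3.04, SE 0.50). Nodal itself, the ligand that patterns epiblast and streak, rose by 0.84 (SE 0.22), and Fst, which binds activin, rose by 2.80 (SE 0.63). Smad7, an inhibitor of Nodal and TGF-beta signals, had 59.2, 79.6 and 55.6 CPM at day 6, against 257, 269 and 200 CPM at day 0, and fell by 1.90 (SE 0.19). Id2, a target of BMP, had 12.1, 13.1 and 14.9 CPM at day 6, against 33.8, 83.4 and 99.6 CPM at day 0, and fell by 2.43 (SE 0.35). Id2 rose with the fibroblast genes among the Notch1-/- day 0 libraries (slope 0.72, as defined with the sorting of the falls), in the main sorting and 2 of its 4 alternatives. Over the WT day 0 libraries its slope was -0.508. The part of fibroblast RNA in its fall was not tested. There was no overlap between days for any of the 4 genes whose values are given. Of all loci 24.9% had every day 6 value above and 24.4% every day 6 value below day 0.

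All 6 tested primed epiblast genes rose (median 1.40), against 17.2% of all loci. Fgf5, a growth factor of the epiblast after implantation, had 160, 113 and 158 CPM in day 6 libraries, against 7.22, 6.43 and 13.5 CPM in day 0 libraries (3.99, SE 0.54, adjusted p = 0.000185). Cdh2 (N-cadherin) had 253, 242 and 105 CPM at day 6, against 18.0, 19.3 and 19.3 CPM at day 0 (3.41, SE 0.28). The de novo DNA methyltransferases Dnmt3a (1.22, SE 0.35) and Dnmt3b (1.21, SE 0.37) rose, with most Dnmt3b in day 6 library 3 (1043, 794 and 1927 CPM, against 695, 364 and 571 CPM at day 0). The list was sensitive to single libraries, with 2 rises left without day 6 library 3 or without day 0 library 2 and 3 without day 0 library 3. Dnmt3b was not called without any of these 3 (adjusted p = 0.122, 0.0927 and 0.0601), nor Dnmt3a without the first pair (0.0858 and 0.0705).

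Naive pluripotency genes fell: 10 of 13 tested members were lower and 1 was higher (median -1.75), against 18.7% of all loci lower. Zfp42 (Rex1; chromosome 8, 44372160 to 44393033), a marker of naive cells, had 113, 155 and 126 CPM in day 6 libraries, against 477, 769 and 497 CPM in day 0 libraries (-2.14, SE 0.23, adjusted p = 3.87e-05). Klf5, a factor of the naive network, had 85.8, 109 and 68.6 CPM at day 6, against 406, 442 and 429 CPM at day 0 (-2.28, SE 0.18). Fbxo15 had 38.8, 33.3 and 38.7 CPM at day 6, against 177, 185 and 260 CPM at day 0 (-2.49, SE 0.21). Day 6 values of all 3 genes lay below day 0 values, as for 24.4% of all loci, and none of the genes went to 0. Esrrb (-1.24, SE 0.25), Klf4 (-2.41, SE 0.34) and Klf2 (-1.18, SE 0.22) fell too. Tfcp2l1 had 251, 458 and 302 CPM at day 6 against 553, 611 and 298 CPM at day 0 and was not called. Nanog, which shares 54% of its exon length, was not called by counts (-0.21, SE 0.35) but was by FPKM, with 126, 142 and 119 FPKM at day 6 against 186, 345 and 198 FPKM at day 0 (-0.85, SE 0.25, adjusted p = 0.0223, limma). The member that rose, Tdgf1 (1.14, SE 0.39), shares 93% of its exon length, and its FPKM was 387, 359 and 265 at day 6 against 359, 355 and 348 at day 0. Pou5f1 and Sox2 could not be linked to a locus.

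Germline genes, of which many are active at a low level in stem cells, fell: 16 of 19 tested members were lower and 0 higher (median -3.14), and 10 were lower by log2(FPKM + 1). By counts 18.7% of all loci were lower and 17.2% higher. Piwil2, an Argonaute protein of the piRNA pathway, had 6.73, 6.84 and 8.99 CPM in day 6 libraries, against 50.2, 96 and 52.8 CPM in day 0 libraries (-3.14, SE 0.26, adjusted p = 9.37e-06). Mael (-2.68, SE 0.34), of the same pathway, and Tex101 (-2.71, SE 0.33), a germ cell surface protein, fell too. Dazl, an RNA-binding protein of germ cells, had 6.39, 6.13 and 6.83 CPM at day 6, against 26.9, 187 and 108 CPM at day 0 (-4.06, SE 0.68), so the day 6 libraries were even and the day 0 libraries were not. Zscan4c, a gene of the 2-cell stage, was close to the floor on both days and had 0 counts in all 3 day 6 libraries, against 0.109, 0.0615 and 0.642 CPM at day 0, a change of at least -5.10 on the log2 scale against a floor of 3 counts over the group. Zscan4 genes are near-identical copies, so their counts are uncertain.

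Of 11 tested genes of DNA methylation 4 rose and 5 fell, where 17.2% of all loci rose and 18.7% fell. The dioxygenases that oxidise methylcytosine went separate ways, Tet1 (-0.98, SE 0.23) and Tet2 (-2.17, SE 0.33) falling and Tet3 rising (1.12, SE 0.14) by counts. Tet2 had 116, 137 and 133 CPM at day 6 against 429, 978 and 325 CPM at day 0, and Tet3 had 60.6, 60.0 and 71.8 CPM against 30.6, 24.6 and 33.2 CPM. The rise of Tet3 was not called by FPKM (adjusted p = 0.368), and 3 of the list fell without day 6 library 1, day 6 library 2 or day 0 library 2. Dppa3, which shields methylation marks in the early embryo, fell by 2.14 (SE 0.29).

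Vessel and heart genes rose in part. Kdr (chromosome 5, 76328835 to 76374454), the VEGF receptor that marks early mesoderm and endothelium, had 253, 224 and 69.4 CPM in day 6 libraries, against 2.33, 1.92 and 2.65 CPM in day 0 libraries (6.31, SE 0.59, adjusted p = 1.61e-05). Of 17 tested cardiac progenitor genes 9 rose and 1 fell (median 1.12), where 17.2% of all loci rose and 18.7% fell. Gata6, a factor of heart and endoderm, had 73.5, 68.1 and 28.6 CPM at day 6, against 1.99, 5.04 and 2.82 CPM at day 0 (4.11, SE 0.42), and Isl1, of the second heart field, rose by 3.02 (SE 0.44). Meis1 had 2.13, 1.66 and 1.39 CPM at day 6, against 7.17, 14 and 20.2 CPM at day 0, and fell by 3.00 (SE 0.42). The Notch1-/- day 0 values of Meis1, the only fallen member, climbed with the fibroblast genes (slope 0.68, and following in 2 of 4 alternative sortings). Over the WT day 0 libraries its slope was -0.38. The part of fibroblast RNA in its fall was not tested. In bulk RNA fewer cells of a type and less RNA per cell cannot be told apart. Kdr, Gata6 and Isl1 were all lowest in day 6 library 3.

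The markers Tnnt2 and Cdh5 of finished tissues were low, though not all members of their lists were. Of 14 tested sarcomere genes 3 rose and 2 fell (21.4% and 14.3%, median 0.41), near the 17.2% and 18.7% of all loci. Without day 6 library 3 or by FPKM 5 of them rose. Actc1, the cardiac actin, rose to 6.25, 8.80 and 4.65 CPM at day 6, against 0.228, 0.466 and 0.942 CPM at day 0 (3.59, SE 0.83). By FPKM Myl7 averaged 13.1 at day 6 against 3.94 at day 0 (adjusted p = 0.0162, limma). Tpm1 averaged 213 against 123.5 FPKM (adjusted p = 0.00507, limma). By counts the rise of Myl7 was not called without day 6 library 1 or day 0 library 3. Tnnt2, the cardiac troponin T that defines cardiomyocytes, had 2.57, 2.49 and 0.521 CPM at day 6 against 0.873, 0.739 and 1.37 CPM at day 0 and was not called (0.90, SE 0.49), though it was without day 6 library 3 (1.36, adjusted p = 0.0126). Nppb, a natriuretic peptide, fell by 5.67 (SE 0.70). Of 21 tested endothelial and blood genes 9 rose and 3 fell (median 1.03). Besides Kdr the rises included Flt1 (2.28, SE 0.32) and Flt4 (1.03, SE 0.22), both VEGF receptors, and Etv2 (2.50, SE 0.40), which starts the blood and vessel lineage. Cdh5, the cadherin of mature endothelium, had 1.09, 0.976 and 1.68 CPM at day 6 against 0.307, 0.440 and 0.782 CPM at day 0 (1.29, SE 0.35, adjusted p = 0.0114), and was not called by FPKM. The embryonic globin Hbb-bh1 had 0.009, 0 and 3.27 CPM at day 6, nearly all of it in library 3.

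Visceral endoderm genes gave 10 rises and 2 falls of 18 (median 1.20), against 17.2% and 18.7% of all loci. The count dropped to 5 rises without day 6 library 1 or day 0 library 3 or by log2(FPKM + 1), and to 6 without day 0 library 2. Lrp2 (megalin), an endocytic receptor of this layer and of neural tissue, had 143, 145 and 408 CPM in day 6 libraries, against 32.1, 58.0 and 41.7 CPM in day 0 libraries (2.40, SE 0.38). The serum carriers that define the layer stayed low: Ttr had 0.414, 0.0702 and 0.320 CPM at day 6 against 0, 0.0352 and 0.0200 CPM at day 0 (3.74, SE 0.80), and Apob had 4.94, 8.05 and 12 CPM against 4.68, 3.06 and 2.72 CPM (1.25, SE 0.31). Neither was called by FPKM. Afp was under 0.5 CPM in all 6 libraries and was not called. Of 8 definitive endoderm genes 4 rose, and 2 without day 6 library 1 or 3 or day 0 library 2 or 3. Cxcr4, a chemokine receptor of endoderm and mesoderm, had 97.5, 63.9 and 28.3 CPM at day 6, against 3.61, 3.56 and 2.47 CPM at day 0 (4.30, SE 0.41).

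Other lists moved in both directions, where 17.2% of all loci rose and 18.7% fell. Of 12 neural genes 5 rose and 2 fell by counts, and 1 rose by FPKM. The neuronal migration gene Dcx rose to 1.48, 3.27 and 2.92 CPM at day 6, against 0.00992, 0.0176 and 0.120 CPM at day 0 (5.69, SE 0.71), while Tubb3, a neuronal tubulin, had 22.4, 33.3 and 48.6 CPM against 121, 134 and 97.1 CPM (-1.75, SE 0.29). Of 10 neural crest genes 2 rose and 3 fell, of which 1 fell by log2(FPKM + 1), and the change of Ngfr was -3.62 (SE 0.35). Of 17 imprinted genes 6 rose and 3 fell (median 0.33), and Peg3, a zinc finger gene, had 1467, 1585 and 784 CPM at day 6, against 211, 83.4 and 134 CPM at day 0 (3.16, SE 0.41). Of 9 trophoblast genes 3 rose and 4 fell, and of the 5 linked Hox and Cdx genes 2 rose and 2 fell, or 1 rose by FPKM, where Cdx4 lost its call without any 1 of the 6 libraries and Cdx2 without day 6 library 2 or day 0 library 2. Of 14 genes of the epithelial-mesenchymal transition 7 rose and 2 fell, or 4 rose without day 6 library 1 or day 0 library 2; Snai1, the repressor that starts the transition, rose by 1.78 (SE 0.35). Of 16 cell cycle genes 3 rose and 2 fell (18.8% and 12.5%), near the shares of all loci. Cdkn1b, a cyclin-dependent kinase inhibitor, rose by 1.73 (SE 0.29) and Cdkn2a, another, fell by 3.27 (SE 0.27). Of 15 glycolysis genes 2 rose and 5 fell, and 3 fell without any 1 of the libraries other than day 0 library 3. Hk1, a hexokinase, fell by 1.57 (SE 0.31).

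Within the Notch pathway itself 8 of 19 tested genes rose and 2 fell (median 0.75), where 17.2% of all loci rose and 18.7% fell. Among the ligands Dll1 had 28.7, 21.2 and 20.2 CPM in day 6 libraries, against 2.98, 2.43 and 4.87 CPM in day 0 libraries (2.77, SE 0.59), and Jag1 rose by 0.95 (SE 0.17). Of the other receptors Notch2 (0.50, SE 0.17) and Notch3 (1.00, SE 0.30) rose. Rbpj, through which cleaved receptors act on DNA, had 28.0, 34.2 and 32.3 CPM at day 6, against 89.1, 110 and 99.5 CPM at day 0, and fell by 1.66 (SE 0.23). Hey1, a target, had 24.3, 23.2 and 11.7 CPM at day 6, against 7.94, 4.84 and 4.58 CPM at day 0 (1.77, SE 0.32). Hes1, a target without usable counts, had 44.5, 46.0 and 31.4 FPKM at day 6, against 9.89, 19.4 and 13.5 FPKM at day 0. The named ligands, receptors and Hey1 were thus higher at day 6 in cells whose Notch1 locus stayed low.

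The 12 called genes of greatest rise were taken among named genes with a mean of at least 2 on the log2 CPM scale over the 6 libraries, under 50% of exon length shared with another locus and no overlap between days, so Lhx1 and Dcx, with changes above that of Wnt3 at lower levels, are not among them. Lzts1, a leucine zipper protein, had 46.2, 62.5 and 29.5 CPM in day 6 libraries, against 0.724, 0.167 and 0.391 CPM in day 0 libraries (6.76, SE 0.68). Vax1, a homeobox factor of the ventral forebrain, had 11.5, 15.7 and 3.01 CPM at day 6, against 0.0694, 0.0967 and 0.0602 CPM at day 0 (7.03, SE 0.71). Cyp4f15 (6.97, SE 0.70), a cytochrome P450, Kcnc1 (6.66, SE 0.85), a potassium channel, Slc44a5 (6.52, SE 0.60), a choline transporter-like protein, Fat3 (6.45, SE 0.55), an atypical cadherin, and Egflam (5.75, SE 0.43), a matrix protein, rose likewise. Klhl6 (5.85, SE 0.84) and Prss40 (6.41, SE 0.76) made up the 12 together with Wnt3, Kdr and Frzb. Of noncoding genes Fendrr, needed in lateral mesoderm, had 20.0, 12.7 and 5.06 CPM at day 6, against 0.416, 0.290 and 0.491 CPM at day 0 (4.98, SE 0.52), and Jpx, an activator of Xist, rose by 1.58 (SE 0.31). Fendrr, like most mesoderm genes named, was lowest in day 6 library 3.

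The falls were then sorted by how each locus varied among the day 0 libraries. The fibroblast level, the mean log2(CPM + 0.5) of Lox, Mgp and S100a4, was 0.07, 0.84 and 0.30 in Notch1-/- day 6 libraries, against 4.22, 5.20 and 6.32 in Notch1-/- day 0 libraries. Lox (chromosome 18, 52675623 to 52689575), which cross-links collagen, had 1.53, 1.48 and 2.67 CPM at day 6 against 69.7, 186 and 375 CPM at day 0 (-6.79, SE 0.59), and S100a4, a calcium-binding protein, had 0.243, 0.25 and 0.283 CPM against 5.96, 52.9 and 54.3 CPM. Mgp, a matrix protein, had 0.261, 3.33 and 0.261 CPM at day 6 against 13.7, 4.54 and 24.5 CPM at day 0, so by itself it does not follow the order of the level. A fallen locus was said to follow the level when its log2(CPM + 0.5) rose by at least 0.5 per unit of the level over the 3 day 0 libraries and kept their order, and to be steady when that slope lay within 0.25 of 0. With 3 libraries this is a description, with no test. The 0.5 added to the CPM pulls the slopes of loci near or under 0.5 CPM toward 0. Some such loci still followed, as did Sh2d1b1 (mean 0.354 CPM at day 0, slope 0.503). The 3 genes that define the level are not counted.

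Of 4490 fallen loci, 563 (12.5%) followed the fibroblast level, 2767 (61.6%) were steady and 1160 (25.8%) did neither. Among loci that rose 1.75% followed, and among those not called 2.13%. These shares are not matched for the day 0 level of the loci, on which the slope depends. Of the falls of at least 16-fold 31.7% followed and 41.2% were steady, so following loci were more frequent among the deep falls. Among 1749 fallen loci with at least 4 CPM at day 0, a limit chosen after seeing the data, 17.3% followed and 53.9% were steady. The following share depended on the limits: it was 6.41% with a slope of at least 0.75 for following and within 0.15 of 0 for steady, 29.3% with 0.25 and any order, and 5.55% over all 6 day 0 libraries. The share of neither class was 50.1% and 9.11% under the first pair. The loci nearest the limit of 0.5 were Vmn2r79 (slope 0.502) and Sh2d1b1 (0.503) just inside and Itga5 (0.499) and Hoxa7 (0.498) just outside. Summed over the 563 loci, the following class took 2532, 2644 and 2749 CPM in Notch1-/- day 6 libraries, against 7272, 20109 and 26850 CPM in Notch1-/- day 0 libraries. The loci were chosen as lower at day 6 and as climbing with the level. The direction and the day 0 order of these sums are therefore given by that choice, and only their size is described.

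The WT day 0 libraries, which the sorting did not use, had levels of 5.90, 5.59 and 6.70 and gave a slope of at least 0.5 for 46.0% of the following loci, 8.17% of the steady loci and 16.7% of the rest. Following loci that did not fall had such a WT slope too, 50% of those that rose and 37.6% of those not called, so the recurrence in WT is not particular to the falls. With at least 4 CPM at day 0 these shares were 59.4% of following and 7.42% of steady loci. A slope below 0 in WT was found for 27.2% of the following loci and 48.6% of the steady ones.

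**Figure D3:**
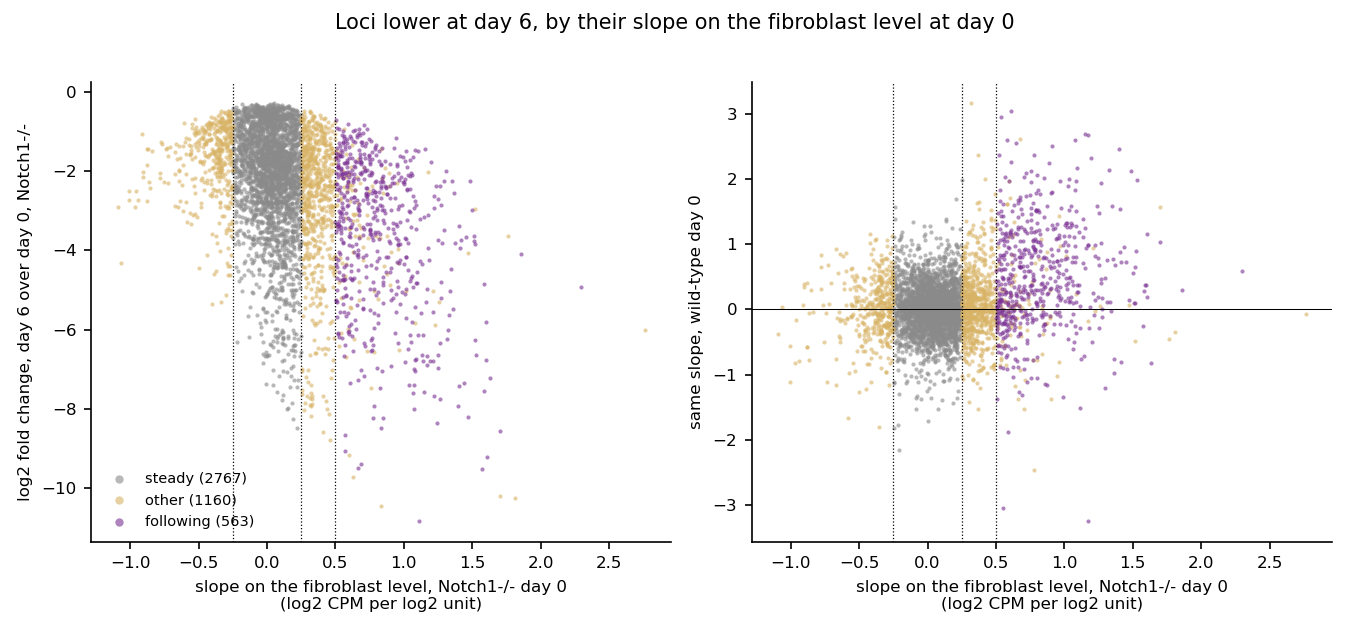
Each point is 1 of 4490 loci lower at day 6 in Notch1-/- cells, placed by its slope on the fibroblast level over the 3 Notch1-/- day 0 libraries (log2 CPM per log2 unit) and, at the left, by its log2 fold change of day 6 over day 0 or, at the right, by the same slope in the 3 WT day 0 libraries. Dotted lines mark the limits of -0.25, 0.25 and 0.5; of the 563 following loci (purple) 46.0% have a WT slope of at least 0.5, against 8.17% of the 2767 steady loci (grey).

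Of all falls 12.5% followed, 61.6% were steady and 25.8% did neither. The naive and germline lists followed about as rarely as that, and both fibroblast lists followed far more often. Of the 10 fallen naive genes 0 followed, 6 were steady and 4 did neither, near the shares of all falls for so few genes. The slopes of Zfp42 (0.015), Klf5 (0.04) and Klf2 (-0.005) were close to 0. Of the 16 fallen germline genes 2 followed, Stra8 and Zscan4d, 5 were steady and 9 did neither; this list was lowest in day 0 library 1 and highest in library 2. Of the 20 fallen fibroblast cytokine and protease genes 16 followed and 0 were steady. The 29 fallen fibroblast matrix genes include the 3 that define the level and are not counted. Of the rest 22 followed, 1, Fap, was steady and 3 did neither. Whether feeder cells were collected with any library is not given in the labels.

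Of 21 tested cytokine and protease genes 20 fell (median -6.63), against 18.7% of all loci. Inhba (chromosome 13, 16102848 to 16126262), which encodes the subunit of activin A, had 1.75, 1.28 and 1.89 CPM in day 6 libraries, against 196, 1381 and 2017 CPM in day 0 libraries (-9.51, SE 0.94, adjusted p = 2.33e-05). Il1rl1, the receptor of interleukin 33, had 0.216, 0.328 and 0.149 CPM at day 6, against 20.9, 158 and 231 CPM at day 0 (-9.20, SE 0.98). Fgf7, a growth factor that fibroblasts send to epithelia, had 0.180, 0.289 and 0.268 CPM at day 6, against 21.3, 86.7 and 136 CPM at day 0 (-8.36, SE 0.66). All 3 were low and even at day 6. They were lowest in library 1 of day 0, which their class as following genes requires. The chemokines Ccl7 (-7.92, SE 1.00) and Cxcl5 (-7.58, SE 1.04) fell, as did, among genes outside the lists, Olr1 (-8.56, SE 1.10), Tslp (-7.75, SE 0.71), Cavin2 (-7.60, SE 0.73), Prl2c3 (-7.54, SE 0.92), Gpr149 (-7.43, SE 0.91) and the adhesion receptor Vcam1 (-7.40, SE 0.71). Lif, the cytokine also added to the medium, had 3.18, 4.18 and 3.34 CPM at day 6, against 20.1, 37.1 and 61.9 CPM at day 0 (-3.48, SE 0.39). Cxcl12 was the member that rose (1.24, SE 0.43). In the sorting over all 6 day 0 libraries, Inhba, Il1rl1, Fgf7, Olr1, Tslp, Prl2c3 and Gpr149 were neither following nor steady. Over the WT day 0 libraries alone the slope of Inhba was -0.248 and that of Il1rl1 was 1.16.

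Of 36 matrix genes 29 fell and 1 rose (median -2.95), where 18.7% of all loci fell and 17.2% rose. Prrx1, a mesenchyme factor, had 2.32, 1.70 and 1.96 CPM in day 6 libraries, against 40.0, 162 and 218 CPM in day 0 libraries (-6.14, SE 0.61). The small proteoglycan Dcn (-5.34, SE 0.78) and the latent TGF-beta binding protein Ltbp2 (-4.96, SE 0.45) fell. Sparc, a matrix protein that stem cell derivatives also make, had 319, 325 and 343 CPM at day 6 against 361, 392 and 454 CPM at day 0 and was not called (-0.29, SE 0.20). Cnn1, a smooth muscle calponin, was the member that rose (0.99, SE 0.35).

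The Y-linked genes, which are no fibroblast genes, followed the fibroblast level too. Ddx3y had 0.0540, 0.125 and 0.0968 CPM in day 6 libraries, against 3.17, 9.83 and 17.6 CPM in day 0 libraries (-6.76, SE 0.61), and Eif2s3y had 0.0540, 0.0858 and 0.0670 CPM against 2.69, 7.56 and 13.6 CPM (-6.82, SE 0.56). Uty (-6.54, SE 0.58) and Kdm5d (-6.42, SE 0.61) moved alike, and all 4 called members followed the level, against 12.5% of all falls. Uty did so in 2 of 4 alternative sortings and Ddx3y, Eif2s3y and Kdm5d in 3. Over all 6 day 0 libraries Ddx3y, Eif2s3y and Uty were neither following nor steady. Summed over the 5 tested genes, the Notch1-/- day 6 libraries held at most 0.242 CPM, against 8.02, 21.9 and 38.7 CPM at day 0. In WT cells the same sum was 236, 220 and 251 CPM at day 6, against 211, 286 and 224 CPM at day 0, and it did not order the WT day 0 libraries by their fibroblast level. The labels do not give the sex of either kind of cell, so genotype and sex chromosomes cannot be told apart in the comparison with WT cells. The part of fibroblast RNA in any of these falls was not tested. With the fibroblast level as a covariate in the fit, 154 loci were higher and 91 lower, 126 and 68 of them shared with the calls above, since the level is low in all day 6 and high in all day 0 libraries and the day and the level cannot be told apart. Wnt8a, Frzb and Sp8 were among the genes still called higher there, and Wnt7b, Bcl3 and Ngfr among those still lower.

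**Figure D4:**
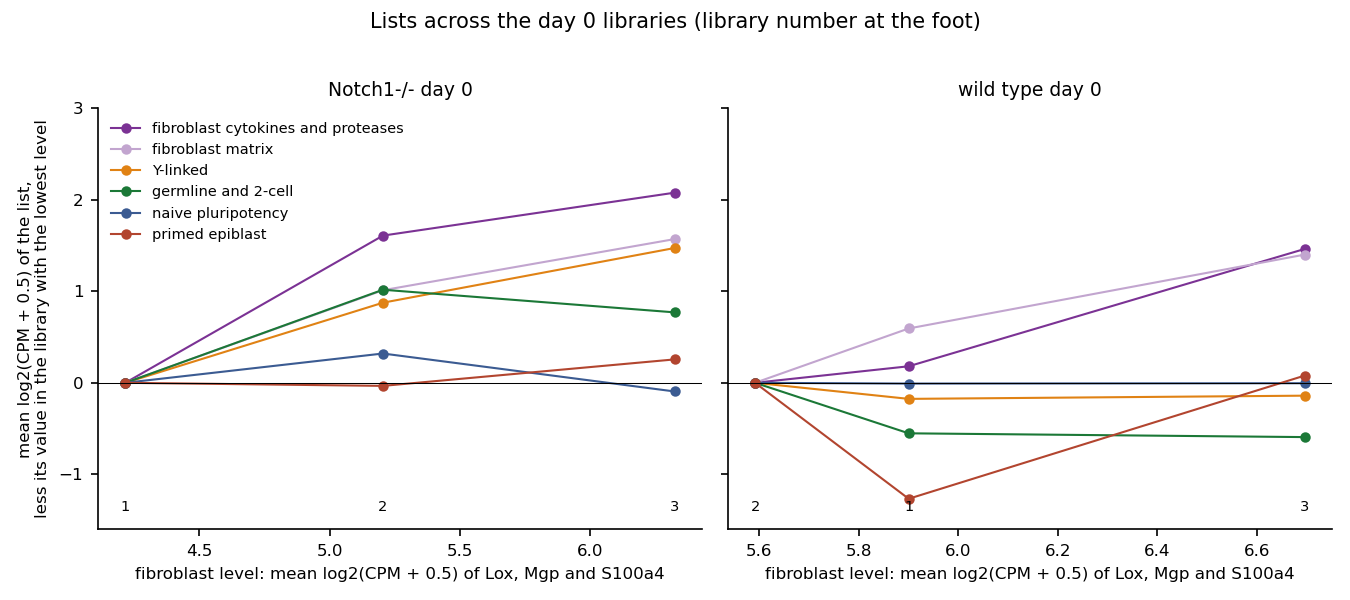
Mean log2(CPM + 0.5) of 6 gene lists in the 3 day 0 libraries of Notch1-/- (left) and WT cells (right), less its value in the library with the lowest fibroblast level, against the fibroblast level; numbers at the foot are library numbers. In Notch1-/- cells both fibroblast lists and the Y-linked genes climbed with the level and the naive list did not; in WT cells both fibroblast lists climbed and the Y-linked genes did not.

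Other steady falls lay outside the stem cell lists, and those named had to pass the limits on level, sharing and overlap given for the rises. Calml4, a calmodulin-like protein, had 0.216, 0.25 and 0.611 CPM in day 6 libraries, against 36.5, 14.2 and 29.0 CPM in day 0 libraries (-6.20, SE 0.52). Wnt7b, a Wnt ligand of epithelia, had 1.48, 0.773 and 1.34 CPM at day 6, against 35.9, 18.4 and 29.5 CPM at day 0 (-4.54, SE 0.32). Msln, a surface protein of mesothelium, fell by 4.86 (SE 0.46), and Inhbb, the other activin subunit, by 4.11 (SE 0.62). For these 4 genes the day 0 libraries did not follow the order of the fibroblast level, unlike Inhba. These genes were taken from the steady class and Inhba from the following class, so the contrast is largely given by that choice. Nlrp4f (-3.84, SE 0.44), which has near-identical relatives that make its counts uncertain, Bcl3 (-3.78, SE 0.28), Glod5 (-3.59, SE 0.32), Serpinb6c (-3.56, SE 0.30), Tfpi (-3.53, SE 0.48), an inhibitor of coagulation, Slc13a5 (-3.51, SE 0.42), a citrate transporter, and Liph (-3.50, SE 0.43), a lipase, made up the rest of the 12 of greatest size together with Ngfr. The class depended on the limits of the sorting: Msln, Bcl3, Tfpi and Ngfr were steady in 1 of 4 alternative sortings and Glod5 and Slc13a5 in 2, against 3 or 4 for the rest of the 12. Of noncoding genes H19, an imprinted RNA, had 1.17, 0.297 and 0.447 CPM at day 6, against 5.64, 32.6 and 45.8 CPM at day 0 (-5.47, SE 0.72) and followed the level, Dubr fell by 2.32 (SE 0.26) and was steady, and Eprn fell by 2.58 (SE 0.50) and did neither.

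Whether a change differed between genotypes was tested as the change in Notch1-/- minus the change in WT cells in the same fit. It was higher in Notch1-/- cells for 1527 loci (6.36% of those tested) and lower for 1181 (4.92%). The count of higher loci was 974 without Notch1-/- day 6 library 3, 846 without WT day 6 library 1 and 747 without WT day 6 library 2, and the count of lower loci 773 and 687 without those WT libraries.

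Of 14 tested streak genes the difference was higher for 7 and lower for 0, against 6.36% and 4.92% of all loci. Streak genes thus stood higher in the Notch1-/- change where they differed. Wnt8a averaged 88.2 ± 3.51 CPM at day 6 and 2.24 ± 1.24 CPM at day 0 in Notch1-/- cells, and 4.55 ± 2.31 CPM at day 6 and 10.5 ± 1.27 CPM at day 0 in WT cells (SD, n = 3 each), a difference of 6.51 (SE 0.56, adjusted p = 7.33e-05). Wnt3 averaged 71.0 ± 29.5 and 1.47 ± 1.04 CPM in Notch1-/- cells at day 6 and day 0, and 30.9 ± 1.16 and 5.59 ± 1.48 CPM in WT cells (3.13, SE 0.70, adjusted p = 0.0134). Frzb (3.22, SE 0.71) and Vrtn (2.30, SE 0.45) differed the same way, whereas Foxa2 (0.01, SE 0.92) and Kdr (0.15, SE 0.67) were not called. For Kdr the WT means were 251 CPM at day 6 and 3.52 CPM at day 0. The difference of T by counts (4.68, SE 1.18) was not called without WT day 6 library 1 or 2 or WT day 0 library 1 or 3 (adjusted p from 0.0508 to 0.0722). In the primed list Fgf5 (2.89, SE 0.70) and Dnmt3b (2.29, SE 0.53) differed too, Fgf5 not without WT day 6 library 2 (adjusted p = 0.0581). Dll1 rose in Notch1-/- cells (2.77) and fell in WT cells (-2.44), a difference of 5.20 (SE 0.83, adjusted p = 0.00207).

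Lineage and imprinted genes differed mostly in the other direction. The difference was lower for 10 of 17 cardiac progenitor genes, 9 of 21 endothelial and blood genes, 7 of 18 visceral endoderm genes and 11 of 17 imprinted genes. It was higher for 0, 0, 1 and 0 of them, the exception being Lrp2 (4.08, SE 0.52). Over all loci it was lower for 4.92% and higher for 6.36%. Tbx20, an early heart factor, averaged 22.5 CPM at day 6 and 11.2 CPM at day 0 in Notch1-/- cells, and 265 CPM at day 6 and 1.63 CPM at day 0 in WT cells (-6.34, SE 0.68). Cdh5 (-6.30, SE 0.51), Ttr (-6.30, SE 1.53) and Apob (-4.43, SE 0.45) differed in the same direction, Ttr not without Notch1-/- day 0 library 2 or 3 (adjusted p = 0.208 and 0.0703). Igf2, an imprinted growth factor, averaged 11200 CPM at day 6 in WT cells, and in Notch1-/- cells it had 374, 158 and 111 CPM at day 6 against 82.5, 38.1 and 82.7 CPM at day 0 (difference -5.06, SE 0.56). The difference was not called for 11 of 13 naive genes and 17 of 19 germline genes, which does not show that they changed alike.

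**Figure D5:**
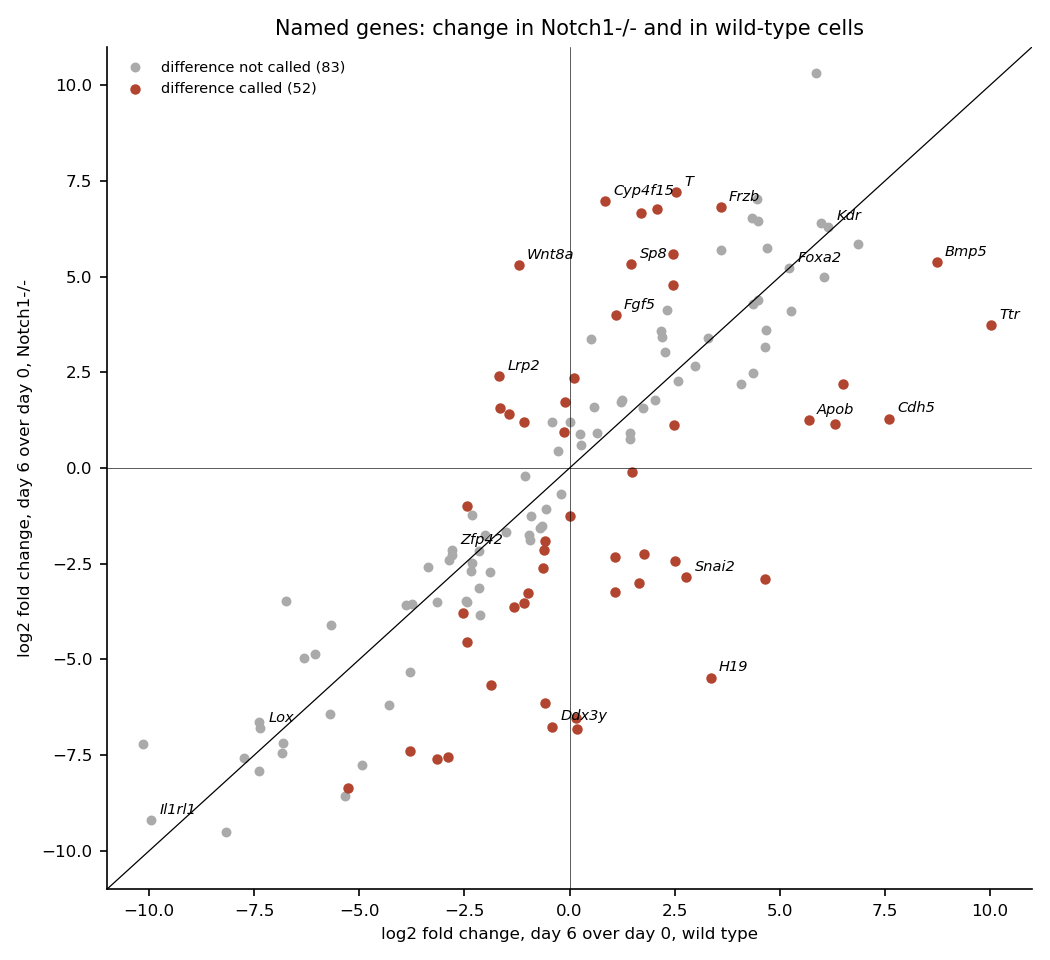
Log2 fold change of day 6 over day 0 in Notch1-/- cells (vertical) against the same in WT cells (horizontal) for the named genes, with the line of equal change. Red points are genes whose difference between genotypes was called; Wnt8a (6.51), Frzb (3.22) and Lrp2 (4.08) lie above the line and H19 (-8.83), Cdh5 (-6.30) and Ttr (-6.30) below it, while Zfp42, Lox and Il1rl1 lie near it. The fitted value of Lhx1 (vertical 10.31) is no bound, since its day 0 counts were 0. The axes share no libraries, but all 12 libraries share 1 estimate of the spread.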

How the data were processed

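Per the labels' protocols, poly(A) RNA was read in pairs of 100 bases. The authors deposited read counts per locus and FPKM for all 12 libraries, on mm9 transcript models merged over the libraries; HTSeq 0.5.4p3, Cufflinks 2.1.1, TopHat2 2.0.8 and DESeq are listed in the submitters' processing notes. The deposited counts are not normalised, and the deposited FPKM are scaled by the authors for depth and transcript length. How reads on overlapping models were counted is not given in the sources used here; loci that share at least 50% of their exon length often had few or 0 counts where FPKM were listed, so their counts are uncertain. The loci have no gene names, and 16611 of 40039 were linked to a symbol through the exon and intron lengths of GENCODE vM21 transcripts.

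Counts were tested in R 4.3.3 with edgeR 4.0.16 (TMM scaling, filterByExpr, quasi-likelihood test, Benjamini-Hochberg adjustment over all loci tested, threshold 0.05), with 1 mean per group over all 12 libraries. FPKM were tested with limma 3.58.1 on log2(FPKM + 1), a scale that understates changes of low genes, over loci of at least 1 FPKM in 3 libraries. DESeq2 1.42.0, other scalings, filters, libraries left out and other sorting limits were tried as alternatives, and the fit was tested on simulated data. Tables were made in Python 3.11.15.

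The genes named are Notch1, the scoring and defining markers, the 12 greatest changes each among higher, fibroblast-following lower and steady lower genes, 3 noncoding genes each way, and up to 4 genes per list with the smallest p; other members were named after their values were seen, and a few genes that the rule names are not reported here. The members and the 24 lists were chosen with earlier results of these data known.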

Additional observations from a re-analysis of the deposited data

Results flagged for a closer look

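For 52 named genes the change in Notch1-/- cells differed from that in WT cells by the test of the difference itself (log2, Notch1-/- minus WT, called at 0.05 after adjustment in the same edgeR fit). Their share reflects how the genes were named and is not a rate. Of the 52, 42 were called whichever 1 of the 12 libraries was left out.

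Among streak, Wnt, primed and neural genes the difference was higher for Wnt8a (6.51), T (4.68), Sp8 (3.86), Frzb (3.22), Wnt3 (3.13), Fgf5 (2.89), Vrtn (2.30), Dnmt3b (2.29), Otx1 (2.24), Nes (1.84) and the Notch ligand Jag1 (1.08). It was also higher for Cyp4f15 (6.13), Kcnc1 (4.97), Lzts1 (4.67), Lrp2 (4.08), Sox10 (3.21), Myl7 (2.84) and Tet1 (1.46). Otx1 was called in only 4 of the 12 omissions, those of Notch1-/- day 6 library 3, Notch1-/- day 0 library 2 and WT day 0 libraries 1 and 3 (adjusted p from 0.0556 to 0.0947 in the others), and T and Fgf5 lost their call in 4 and 1.

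Among imprinted, Hox and lineage genes the difference was lower for H19 (-8.83), Hoxc9 (-7.56), Cdh5 (-6.30), Ttr (-6.30), Afp (-5.17), Id2 (-4.94), Meis1 (-4.65), Apob (-4.43), Mirg (-4.34), Igf2os (-4.29), Hoxa7 (-4.01), Nppb (-3.79), Bmp5 (-3.35), Esx1 (-1.98) and Tek (-1.59). Id2, Meis1, H19 and Mirg followed the fibroblast level among the Notch1-/- day 0 libraries, H19 in 3 of 4 alternative sortings and the others in 2. The call of Afp was lost without Notch1-/- day 6 library 1, Notch1-/- day 0 library 3, WT day 6 library 2 or 3 or WT day 0 library 1 or 3 (adjusted p from 0.0523 to 0.116). That of Tek was lost without Notch1-/- day 6 library 1 or 2, Notch1-/- day 0 library 3, WT day 6 library 1 or 2 or WT day 0 library 3 (0.0505 to 0.0656), that of Bmp5 without Notch1-/- day 0 library 3 (0.0548), and that of Ttr in 2 omissions. Igf2os lies opposite Igf2, and the counting is not stated to use strand, so reads of the pair cannot be told apart.

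Among fibroblast-following and Y-linked genes it was lower for Eif2s3y (-6.99), Uty (-6.68), Ddx3y (-6.35), Snai2 (-5.63), Prrx1 (-5.55), Prl2c3 (-4.65), Cavin2 (-4.45), Vcam1 (-3.60) and Fgf7 (-3.10). By FPKM the difference of Cavin2 turned to 0.12 with 1 added, and those of Cavin2, Prl2c3, Vcam1 and Fgf7 were not called with either pseudocount. Summed Y-linked genes stood at no more than 0.242 CPM in Notch1-/- day 6 libraries, against 236, 220 and 251 CPM in WT day 6 libraries, and the labels give the sex of neither. The remaining lower differences were Dubr (-3.39), Tfpi (-2.45), Ngfr (-2.31), Cdkn2a (-2.29), Wnt7b (-2.10), Dppa3 (-1.54), Tet3 (-1.35), Smad7 (-1.33), Ccnd3 (-1.28) and Bcl3 (-1.24). Tet3 turned sign by FPKM (1.08 and 3.01 with 1 and 0.1 added). Bcl3 was called in only 2 of the 12 omissions, those of Notch1-/- day 0 library 3 and WT day 0 library 2 (adjusted p from 0.0529 to 0.102 in the others). Dppa3 lost its call without Notch1-/- day 6 library 1 or 3, Notch1-/- day 0 library 3 or WT day 6 library 1 or 2 (0.0553 to 0.0776). Tfpi lost it without Notch1-/- or WT day 6 library 2 or 3 or WT day 0 library 1 or 3 (0.0504 to 0.0618), and by FPKM.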

How the results depend on the processing

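In the Notch1-/- comparison, each alternative other than the fibroblast covariate and FPKM kept both counts within 1.5 times those reported, and leaving out 1 library gave 3006 to 4480 higher and 3323 to 4845 lower loci. With the covariate 154 loci were higher and 91 lower, and at an unadjusted p under 0.05 there were 3285. Under it 2 streak genes, 1 Wnt, 1 Nodal and BMP, 1 sarcomere and 1 cell cycle gene were higher, 1 neural crest gene was lower, and 0 were called in the reported direction for the naive, primed, cardiac progenitor, endothelial, visceral and definitive endoderm, neural, germline, imprinted, Notch, Hox and Cdx, EMT, both fibroblast, Y-linked, trophoblast and DNA methylation lists.

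FPKM gave 1873 lower loci with 1 added and 1976 with 0.1 added, on fewer loci tested. The difference between genotypes was higher for 963 and 942 loci by FPKM, lower for 775 with 0.1 added, and lower for 2130 by DESeq2. Leaving out 1 library, for which the WT libraries were added after seeing the data, gave 747 to 2215 higher and 687 to 1728 lower differences. By FPKM 5 sarcomere genes (both pseudocounts), 5 visceral endoderm genes (1 added), 1 neural gene (both) and 1 Hox or Cdx gene (both) were higher, and 1 neural crest and 10 germline genes (1 added) were lower. The 6 Notch1-/- libraries alone gave 5 endothelial, 5 visceral and 2 definitive endoderm rises. Loci under 50% shared gave 2 definitive endoderm rises, 3 glycolysis falls and 1 Hox or Cdx rise, as did RLE, upper quartile scaling and no filter for the last (1 each), and upper quartile scaling gave 4 EMT rises.

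With 1 library left out, rises ranged from 2 to 5 for primed, 12 to 13 for streak, 7 to 8 for Wnt, 6 to 9 for Nodal and BMP, 8 to 10 for cardiac progenitor, 2 to 5 for sarcomere, 6 to 11 for endothelial, 5 to 10 for visceral endoderm, 2 to 4 for definitive endoderm, 4 to 5 for neural, 5 to 7 for imprinted, 6 to 8 for Notch, 0 to 1 for Hox and Cdx, 4 to 6 for EMT and 2 to 3 for cell cycle genes. Falls ranged from 9 to 10 for naive, 15 to 16 for germline, 2 to 3 for neural crest, 25 to 30 for matrix, 19 to 20 for cytokine, 4 to 5 for Y-linked and 3 to 4 for trophoblast, glycolysis and DNA methylation genes. Notch1 ranged from 0.28 to 0.53, and was -0.072 and -0.22 by FPKM with 1 and 0.1 added.

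Following loci were 6.41% of falls with stricter limits, 29.3% with looser ones, 5.55% over all 6 day 0 libraries and 16.2% with the matrix list as the level; loci of neither class were 50.1% with stricter and 9.11% with looser limits.

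Signs turned, with no call, under the covariate for Cdkn1b (-0.37), Hey1 (-0.013), Hoxa7 (1.11), Mgp (1.01), Mki67 (-0.35), Myl7 (-1.45), Nanog (0.53), Pax7 (-0.62), S100a4 (0.047), Snai2 (3.35), Sox10 (-0.034), Sox17 (-0.38), Tek (1.79) and Ttr (-0.59). Afp ranged from -1.46 (without day 6 library 3) to 1.96 with 1 library left out, and Tek ranged from -0.40 to 0.20, turning without day 6 library 1 (0.06), without day 0 library 3 (0.20) and by FPKM with 0.1 added (0.012). The difference turned for Cavin2 (0.12, 1 added) and Tet3 (1.08 and 3.01) by FPKM. The causes were not tested, other than the fewer loci or libraries named.

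Same-numbered libraries of day 6 and day 0 correlated by 0.181, 0.166 and -0.0576 in their deviations from the group mean. Pairs of unlike number ranged from -0.205 to 0.126. Day 6 libraries 1 and 2 correlated best with the day 0 library of their number and library 3 did not. Whether the numbers pair the libraries is thus not settled. A replicate block gave 4588 higher and 4807 lower loci and changed no call of the 134 named genes. With 3 libraries per group of at least 100637179 counts each, replicates of a group differed by more than counting error, and loci near 0 CPM are limited by their few counts.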
